A study of Mus musculus with 160 samples.

Results

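Class I antigen presentation was described through 10 genes in single stromal cells of mouse bone marrow: the light chain B2m, the classical heavy chains H2-K1 and H2-D1, the nonclassical heavy chains H2-Q4, H2-T22 and H2-T23, the peptide transporter genes Tap1 and Tap2, the loading factor Tapbp and the transcriptional regulator Nlrc5. They were found by name among 22865 named genes of the deposited expression table. The values of 5 of them come from rows that join near-identical or neighbouring genes, so these values cannot be given to 1 gene: the H2-K1 row also names H2-K2, the H2-D1 row names H2-L, H2-Q5 and LOC547349, the H2-Q4 row names H2-Q7 and H2-Q10, the H2-T22 row names H2-T9, and 1 of the Tapbp rows names Zbtb22. A gene was called listed in a cell at 1 FPKM or more (fragments per kilobase of transcript and per unit of mapped fragments), and 8 of the 10 genes, all but Tap1 and Tap2, were listed in at least 10% of the 160 cells (16 cells), as were 3189 named genes in all.

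The cells came from C57BL/6J mice with no allele or treatment named, 82 cells from young and 78 from old animals. They were sorted as CD45-, Ter119-, CD31-, LepR+ and CD140a+, a surface phenotype that removes blood, red and endothelial cells and keeps leptin receptor-bearing stroma, and were captured and amplified singly on a microfluidic system (Fluidigm C1, SMARTer chemistry). Age was 9 weeks or 24 months by the sample labels and 10 weeks or 2 years by the protocol text. No animal was named for any cell, and the wells were counted separately for each age, so an age was 1 sample, age and capture cannot be told apart, and differences between the ages carry no replicate check and no test. All intervals of shares are exact (Clopper-Pearson) 95% intervals and cover counting error only.

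Of the gate's own transcripts, Lepr was listed in most cells and Pdgfra in a minority. Lepr was listed in 95.1% (young) and 91.0% (old), Pdgfra (which encodes CD140a) in 34.1% and 38.5%, and the stromal chemokine Cxcl12 in 100% and 98.7%. Of 10 blood markers, which include Ptprc (CD45), 8 were listed in no cell of either age. The other two were Fcer1g, in 2 young and 9 old cells, and Srgn, in 6 young and 4 old cells, and the summed FPKM of the list ran from 0 to 448 in young and from 0 to 13887 in old cells. None of 9 endothelial markers was listed in any cell. Named genes per cell had a median of 1114.5 (129 to 2129) in young and 1160 (193 to 2779) in old cells, and read numbers per cell are unknown here. Summed FPKM per cell ran from 29652.5 to 6.72e+06 in young and from 22242.5 to 7.38e+06 in old cells, and 13 young and 9 old cells exceeded 3 times the median.

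Class I molecules carry peptides from inside the cell to its surface, where cytotoxic T cells inspect them. Each is a heavy chain held by the light chain beta-2-microglobulin; peptides made by the proteasome enter the endoplasmic reticulum through the TAP transporter, a pair of the Tap1 and Tap2 proteins, and tapasin, the product of Tapbp, holds empty class I molecules at the transporter while peptides are exchanged. Nearly all nucleated cells carry class I, and interferons, NF-kappaB and the regulator NLRC5 raise transcription of its genes through a compact block of elements before the start site.

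Parts of that block were searched for, as short motifs, in reference promoters. The block was not read as a whole. RefSeq promoter windows (GRCm38.p6, 250 bases before to 50 after the start) matched 8 of the 10 genes, and those of the light chain and of both classical heavy chains are printed here, because these genes carry most of the results. The windows lie at chr2:122147437-122147736 on the forward strand for B2m, at chr17:34000298-34000597 on the reverse strand for H2-K1 and at chr17:35262844-35263143 on the forward strand for H2-D1. Capitals mark matches to a core of the interferon-stimulated response element (TTTCNNTT) and of the NF-kappaB site (GGNNTTNCC), searched on both strands.
B2m: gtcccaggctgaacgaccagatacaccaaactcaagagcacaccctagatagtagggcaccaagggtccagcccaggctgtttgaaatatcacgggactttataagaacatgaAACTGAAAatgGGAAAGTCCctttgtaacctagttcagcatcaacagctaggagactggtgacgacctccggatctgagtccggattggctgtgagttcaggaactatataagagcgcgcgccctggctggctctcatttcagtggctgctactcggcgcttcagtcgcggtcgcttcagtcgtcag
H2-K1: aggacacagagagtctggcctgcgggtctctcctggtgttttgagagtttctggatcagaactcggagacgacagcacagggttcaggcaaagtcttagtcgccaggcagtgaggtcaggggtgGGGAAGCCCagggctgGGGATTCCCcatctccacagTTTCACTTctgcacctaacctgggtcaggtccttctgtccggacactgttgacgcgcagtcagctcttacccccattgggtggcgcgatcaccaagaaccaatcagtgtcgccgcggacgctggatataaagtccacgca
H2-D1: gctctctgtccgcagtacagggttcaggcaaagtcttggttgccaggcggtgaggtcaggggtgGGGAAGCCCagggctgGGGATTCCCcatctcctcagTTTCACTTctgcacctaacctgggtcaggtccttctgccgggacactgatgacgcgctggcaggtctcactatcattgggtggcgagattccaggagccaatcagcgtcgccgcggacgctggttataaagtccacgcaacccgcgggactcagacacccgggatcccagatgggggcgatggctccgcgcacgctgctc

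The order of the matches differs between the heavy chains and the light chain. H2-K1 and H2-D1 share the letters of both NF-kappaB matches and of the interferon match that follows them, which begins at -90 from the start in H2-K1 and at -150 in H2-D1. RefSeq holds a second H2-K1 window with another start, from which the same match begins at -104. Positions thus depend on the start that RefSeq gives. In B2m the order is turned around: the interferon match begins at -137 and the NF-kappaB match at -126. The Y box letters (CCAAT) and the core TGACG of the cyclic AMP response element were also found in the 3 windows and in that of H2-Q4. In the printed windows TGACG begins at -41 in H2-K1 and at -101 in H2-D1, shifted between them as the interferon match is. These motifs were chosen after the sequences were seen. Of 32851 windows of the same length, 23.9% held the interferon core, 15.96% the NF-kappaB core, 37.4% CCAAT, 20.8% TGACG and 0.289% all 4. Of the same 4 motifs the windows of H2-T22, H2-T23, Tap1 and Tapbp held 3, 2, 2 and 1. The letters TTCNNNGAA of the gamma-activated site were in none of the members' windows and in 8.30% of all windows. A match is a run of letters and was not read as a bound site.

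Levels are given by role, from the light chain to the regulator (plot of levels by cell). The light chain was listed in all 82 young and all 78 old cells (95.6% to 100% and 95.4% to 100%). B2m ran from 10.9 through a median of 731 to 2764 FPKM in young cells and from 4.01 through 650 to 3471 in old cells, with the middle 50% of cells at 401 to 1199 and 350 to 1020. The ranges of the ages overlapped almost wholly, and the difference of mean log2(FPKM + 1), old minus young, was -0.13. B2m reached 1000 FPKM in 28 young and 21 old cells, and its median rank among all named genes of a cell was 7 in young and 8 in old cells. It was thus among the most abundant transcripts per length of a typical cell, and the 10 highest genes of a cell included it in 46 young and 42 old cells.

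**Figure D1:**
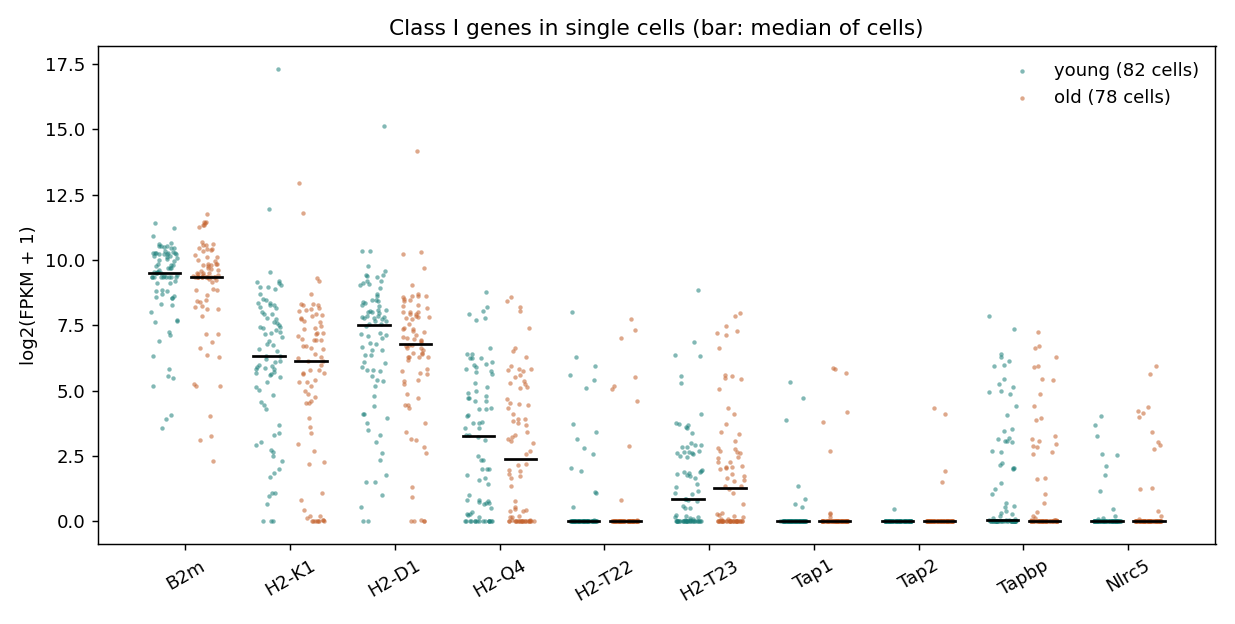
Each point is 1 cell, the vertical axis is log2(FPKM + 1), and the black bar is the median of the 82 young (green) or 78 old (orange) cells. B2m lies above the heavy chains in both ages, H2-K1 and H2-D1 spread from 0 to single cells far above all others, and Tap1 and Tap2 lie at 0 in most cells.

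The B2m values held a dense line. In 20 of the 160 cells, 9 young and 11 old, the gene lay between 644 and 648 FPKM, within 1% of each other, and in 4 of these (3 young, 1 old) the value was the same to the last digit, 646.975. Among the 152 genes listed in at least 100 cells, the largest number of cells within any 1% had a median of 3, and 4 genes reached 10 cells: B2m, Malat1 (18 cells), Actb (17 cells) and Serpine2 (15 cells). For H2-K1 the number was 4, for H2-D1 3 and for H2-Q4 3. The old median of 650 lies next to this line. What makes the values repeat was not tested, and whether B2m in these cells was measured as in the others is unknown here, which bears on its medians, ranks and ratios. Without the 20 cells the median B2m was 784 FPKM in young and 724 in old cells, its median rank in a cell 6 and 9, and its difference between ages -0.16.

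The classical heavy chains present peptides to CD8 T cells. H2-K1 was listed in 77 young (93.9%, 86.3% to 97.99%) and 64 old cells (82.1%, 71.7% to 89.8%). It ran from 0 through a median of 79.2 to 164102 FPKM in young cells and from 0 through 68.6 to 7821 in old cells, with the middle 50% at 21.2 to 242 and 9.88 to 192. Levels overlapped over nearly the whole range. The intervals of the shares overlapped too, but they cover counting error only and do not compare the ages, each of them 1 sample. The difference of mean log2(FPKM + 1) was -0.70, the lowest of the 10 genes and in size above that of 91.3% of the 3189 genes. Many of these were listed in fewer cells than H2-K1. Among the 1049 genes listed in at least 25% of cells, 8.67% differed by 1 or more, beside 3.64% of the 3189.

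H2-D1 was listed in 79 young (96.3%, 89.7% to 99.2%) and 72 old cells (92.3%, 84.0% to 97.1%). Its FPKM ran from 0 through a median of 181 to 36045 in young cells and from 0 through 110 to 18432 in old cells, with the middle 50% at 43.02 to 332 and 40.4 to 245. The ages overlapped again, and the difference of mean log2(FPKM + 1) was -0.38. By rank within a cell, H2-D1 stood at a median of 78 in young and 134 in old cells that listed it, and H2-K1 at 135 and 173.5, so both heavy chains sat well below B2m in the order of transcripts.

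Means of FPKM rested on single cells for both heavy chains, since 1 cell of each age held the highest value of both. Young cell 67, with 474 named genes, had 164102 FPKM of H2-K1 and 36045 of H2-D1, which made 91.0% and 64.96% of the sums over young cells. Old cell 75, with 412 genes, had 7821 and 18432 FPKM, 39.1% and 57.3% of the sums over old cells. Both cells had few genes and a high summed FPKM (6.72e+06 and 1.25e+06). Their B2m was 1416 FPKM, above the upper quartile of young cells, and 35.6 FPKM, below the lower quartile of old cells. Without the highest cell, mean H2-K1 went from 2198 to 199.5 FPKM in young and from 256 to 158 in old cells, and mean H2-D1 from 677 to 240 in young and from 412 to 178 in old cells. The next highest cells were at 3984 FPKM of H2-K1 and 1300 of H2-D1 in young cells.

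Within a cell, on the scale per transcript length, the light chain exceeded each heavy chain row. Among cells that listed both, B2m was higher than H2-K1 in 71 of 77 cells from young and 57 of 64 from old mice, by a median ratio of 6.22 and 7.18. Against H2-D1 it was higher in 68 of 79 and 65 of 72 cells, by median ratios of 5.03 and 5.66. Without the 20 cells of nearly equal B2m the median ratios to H2-K1 were 6.22 and 6.65 and those to H2-D1 5.03 and 5.71. The heavy chains were closer to each other: H2-D1 was above H2-K1 in 50 of 76 young and 34 of 61 old cells, and the median log2 ratio of H2-K1 to H2-D1 was -0.78 and -0.33. The spread around these medians was wide, from -7.39 to 6.66 in young and from -6.27 to 11.20 in old cells.

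The nonclassical heavy chains were lower and were listed in fewer cells. The H2-Q4 row, in the Q region (Qa antigens), was listed in 53 young (64.6%, 53.3% to 74.9%) and 47 old cells (60.3%, 48.5% to 71.2%), with medians of 8.65 and 4.23 FPKM and maxima of 434 and 387. H2-T23 encodes Qa-1, which displays leader peptides of other class I chains to CD94/NKG2 receptors of natural killer cells. It was listed in 40 young (48.8%, 37.6% to 60.1%) and 41 old cells (52.6%, 40.9% to 64.0%), with medians of 0.807 and 1.45 FPKM and maxima of 458 and 253. The H2-T22 row, whose product is bound by some gamma delta T cells, was listed in 15 young (18.3%, 10.6% to 28.4%) and 8 old cells (10.26%, 4.53% to 19.2%), with medians of 0 and maxima of 254 and 214. For each of the 3 rows the intervals of the ages overlapped, which is no comparison of the ages. H2-T23 had the highest difference of mean log2(FPKM + 1) of the 10 genes at 0.34, H2-Q4 stood at -0.38 and H2-T22 at -0.12.

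The transporter genes were rarely listed. Tap1 reached 1 FPKM in 4 young (4.88%, 1.34% to 12.02%) and 6 old cells (7.69%, 2.88% to 15.99%), with maxima of 39.6 and 57.3 FPKM. Tap2 reached it in 0 of 82 young cells (3 cells would be 3.66%, and the exact interval ends at 4.399%) and in 4 old cells (5.13%, 1.41% to 12.6%), with maxima of 0.374 and 19.3 FPKM. An FPKM of 0 can be a failed estimate here, since the common metabolic gene Gapdh reached 1 FPKM in 52 of 160 cells, so a cell without Tap1 or Tap2 is one where the gene was not listed and not one shown to lack it. Of the 10 cells with Tap1, 1 also listed Tap2. Thus the pair that forms the transporter was listed together in 1 of 160 cells.

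Tapbp, for tapasin, was listed in 32 young (39.02%, 28.4% to 50.4%) and 23 old cells (29.5%, 19.7% to 40.9%), with medians of 0.0518 and 0.00264 FPKM and maxima of 228 and 152. Its difference of mean log2(FPKM + 1) was -0.36. These values rest almost wholly on the row shared with Zbtb22: the row that names Tapbp alone was listed in 1 young cell (1.22%) and in no old cell, and its difference was -0.07. All 55 cells with Tapbp, all 10 with Tap1 and all 4 with Tap2 also listed both H2-K1 and H2-D1. However, all 80 cells above the median gene number of their age listed both heavy chains whether or not they listed these genes. Below it both were listed in 57 of 80 cells, including all 15 with Tapbp and all 3 with Tap1. Nlrc5, the class I transactivator, was listed in 8 young (9.76%, 4.31% to 18.3%) and 12 old cells (15.4%, 8.21% to 25.3%), with maxima of 15.2 and 60.2 FPKM and a difference of 0.29. Of the 20 cells with Nlrc5, 18 listed both heavy chains, 14 of 14 above and 4 of 6 below the median gene number. The order of the shares was thus the same in both ages at the top (B2m, H2-D1, H2-K1, H2-Q4, H2-T23, Tapbp). These shares were counted in the same cells, so their intervals do not compare 1 gene with another.

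**Figure D2:**
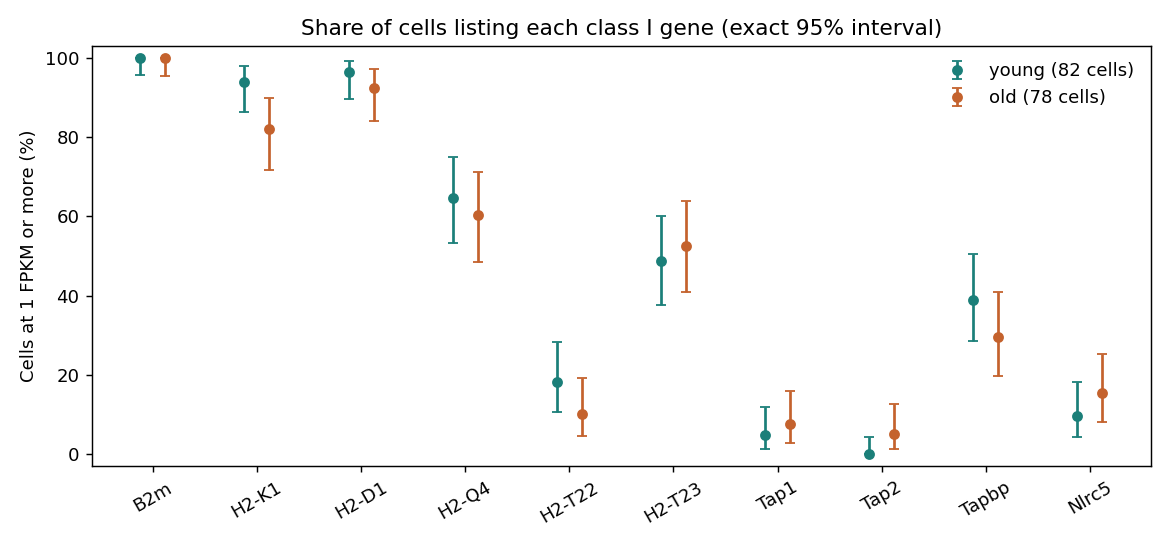
Points are the percent of 82 young (green) and 78 old (orange) cells at 1 FPKM or more for each gene, and bars are exact 95% intervals, which cover counting error only. Shares go from 100% for B2m to 0 of 82 young cells for Tap2. The intervals of the ages overlap for each of the 10 genes, which does not show equal shares, since each age was 1 sample.

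How many of the 10 genes a cell listed went with how many genes it listed at all. The median was 5 genes in both ages, with a middle 50% of 4 to 6 in young and 3.25 to 5.75 in old cells and ranges of 1 to 8 and 1 to 9; no cell listed all 10. Across cells, Spearman's correlation of this number with the number of named genes was 0.65 in 82 young and 0.77 in 78 old cells. This describes cells that may share a capture and whose gene numbers also reflect depth. B2m with both classical heavy chains was listed in 76 young (92.7%, 84.8% to 97.3%) and 61 old cells (78.2%, 67.4% to 86.8%), and neither heavy chain in 2 young and 3 old cells. Above the median gene number of their age, all 41 young and all 39 old cells listed B2m with both. Below it 35 of 41 young and 22 of 39 old cells did.

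**Figure D3:**
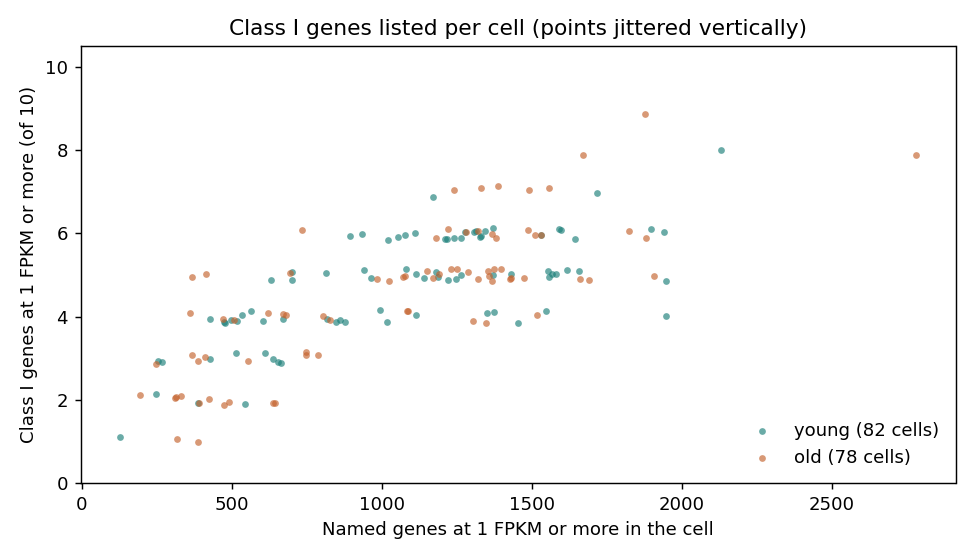
Each point is 1 cell, with the number of named genes at 1 FPKM or more on the horizontal axis and the number of the 10 class I genes listed on the vertical axis (jittered), for 82 young (green) and 78 old (orange) cells. Cells with few genes list few class I genes, with Spearman's correlations of 0.65 and 0.77.

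The lower H2-K1 of old cells was seen below the median gene number of an age and not above it. Above the median gene number, taken within each age, all 41 young and all 39 old cells listed H2-K1, with median FPKM of 118 and 124, and its difference of mean log2(FPKM + 1) was 0.22, the opposite sign. In the lower part by gene number, 36 of 41 young (87.8%, 73.8% to 95.9%) and 25 of 39 old cells (64.1%, 47.2% to 78.8%) listed it, with median FPKM of 55.9 and 14.5. The lower parts were not matched in gene number. Their cells had a median of 665 named genes in young and 553 in old, against 1372 and 1381 in the upper parts. The cells that did not list H2-K1 had a median of 388 named genes in young and 403 in old cells, against 1170 and 1265.5 in those that did. H2-D1 was likewise listed in all cells above the median gene number, and in 38 of 41 young and 33 of 39 old cells below it. Unlike that of H2-K1, its difference of mean log2(FPKM + 1) stayed negative above the median, at -0.34. The cells with fewer than 50% of the median number of genes were 14 young and 20 old ones. Without them the difference was -0.35 for H2-K1 and -0.64 for H2-D1. Whether the number of genes, as a measure of depth or RNA quality, sets the H2-K1 difference was not tested.

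The listing of the other genes went with gene number to unequal degrees. H2-T23 was listed in 9 of the 41 young cells with fewer genes and 31 of the 41 with more, and in 12 and 29 of 39 old cells. Tapbp was listed in 11 and 21 young and in 4 and 19 old cells, and H2-Q4 in 22 and 31 young and 14 and 33 old cells. The 4 old cells with Tap2 were all above the median gene number. Tap1 was listed in 2 young cells on each side of it, and in 1 old cell below and 5 above. Nlrc5 was listed in 3 young cells below and 5 above, and in 3 and 9 old cells. Young cells thus gave no such trend for Tap1.

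Between the ages, none of the 8 genes listed in 10% of cells differed by 1 or more in mean log2(FPKM + 1) (plot of age differences), beside 116 of 3189 genes (3.64%) that did, 50 higher (1.57%) and 66 lower (2.07%) in old cells. B2m, H2-K1, H2-D1, H2-Q4, H2-T22 and Tapbp were lower in old cells and H2-T23 and Nlrc5 higher. The median of the 8 was -0.25, beside a median of -0.02 over the 3189 genes with a middle 50% from -0.26 to 0.21. The signs of H2-D1, Tapbp, H2-T23 and Nlrc5 held under every alternative run, those of B2m and H2-T22 turned with the ratio of mean FPKM (0.08 and 0.24), that of H2-K1 with only cells above the median gene number (0.22), and that of H2-Q4 with those cells (0.03) and without the cells of fewest genes, those under 50% of the median of their age (0.07).

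**Figure D4:**
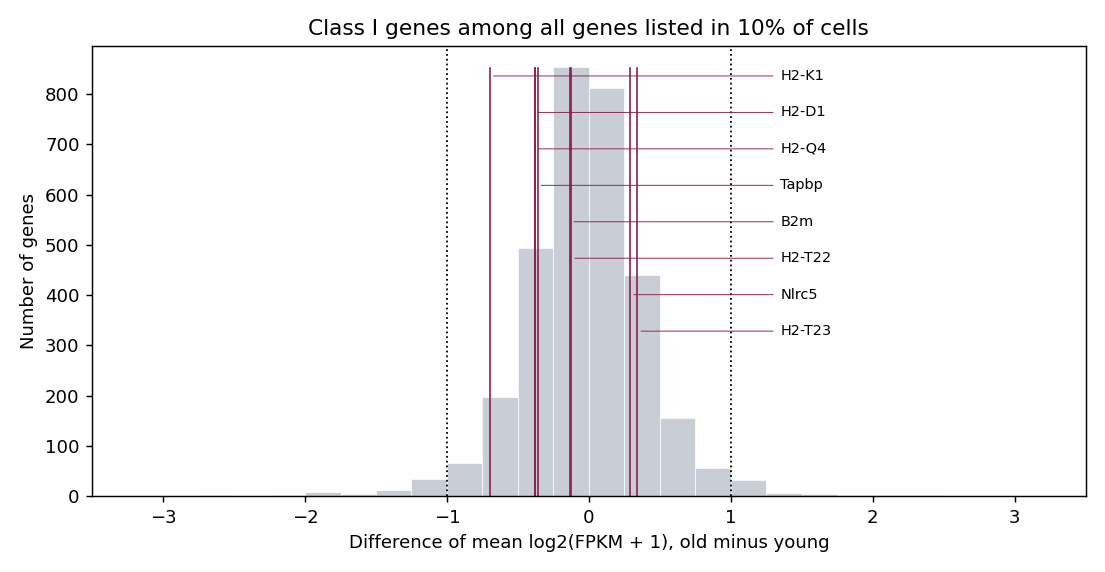
Grey bars count the 3189 genes listed in 10% of cells by their difference of mean log2(FPKM + 1), old minus young, red lines are the 8 class I genes among them, and dotted lines mark -1 and 1. The class I genes lie from -0.70 (H2-K1) to 0.34 (H2-T23), inside the dotted lines.

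Cells listing a blood marker touched this comparison. They numbered 7 of 82 young and 12 of 78 old cells, and none listed 3 or more of the markers. Without them H2-K1 was listed in 71 of 75 young (94.7%) and 52 of 66 old cells (78.8%), and its difference of mean log2(FPKM + 1) was -1.15, past 1 and in the same direction as with all cells, beside 123 of 2870 genes (4.29%) past 1 either way in these cells. The median difference of the 8 genes was then -0.28. Class II genes, a further sign of professional antigen-presenting cells, were nearly absent: of 9 genes, which include H2-Aa, H2-Ab1 and Cd74, 3 were listed in no cell and none in more than 2 cells.

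Co-variation from cell to cell was described for the 4 genes listed in at least 50% of cells of each age, B2m, H2-K1, H2-D1 and H2-Q4. Correlations are Spearman's, across 82 young or 78 old cells, and are given after the number of named genes was removed by rank regression. Cells of an age may share a capture and effects of depth, and some share repeated B2m values. In young cells the 6 pairs had a median of 0.22, beside 0.05 over the 27730 pairs of the 236 genes that met the same filter. In old cells the median was 0.03, beside 0.05. Before the gene number was removed the medians were 0.30 beside 0.21 in young and 0.15 beside 0.19 in old cells. The difference between ages was not tested.

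By pair, the classical heavy chains went together most closely, at 0.38 in young cells, above 99.5% of all pairs, and 0.17 in old cells, above 81.6%. B2m with H2-D1 gave 0.34 in young and 0.15 in old cells. B2m with H2-K1 gave 0.11 and 0.01. The light chain thus followed the H2-D1 row more than the H2-K1 row in both ages by these values. B2m with H2-Q4 gave 0.25 and 0.05, H2-D1 with H2-Q4 0.19 and -0.07, and H2-K1 with H2-Q4 0.06 and 0.02. Each of the 6 pairs holds at least 1 joint row, and how reads of near-identical copies were divided between rows is unknown here.

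**Figure D5:**
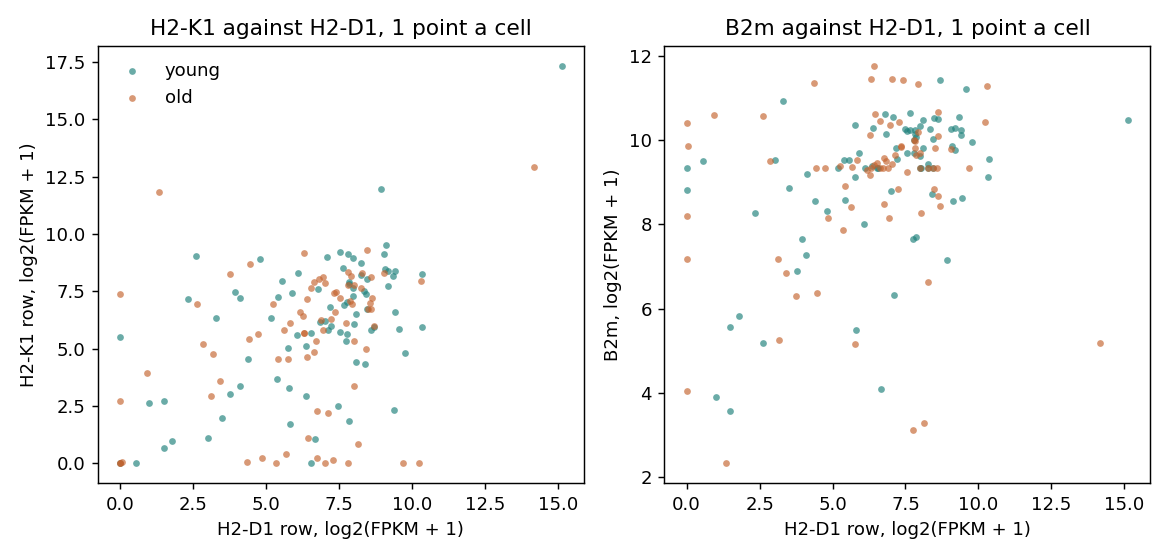
Each point is 1 cell, young in green and old in orange, with log2(FPKM + 1) of the H2-D1 row on the horizontal axes and of the H2-K1 row (left) or B2m (right) on the vertical axes. The cloud is loose in both panels, with correlations after removal of the gene number of 0.38 young and 0.17 old on the left and 0.34 and 0.15 on the right.

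Among the 232 other genes that met the same filter, the likeness of a gene was taken as the smaller of its young and old correlations after removal of the gene number. For B2m the 5 most alike genes were Fstl1, a secreted glycoprotein gene (0.43 young, 0.49 old), Serping1, for the C1 inhibitor of complement (0.41, 0.42), the chromatin gene Cbx3 (0.41, 0.41), the gap junction gene Gja1 (0.40, 0.43) and Marcks (0.38, 0.36). For H2-D1 they were Serping1 (0.35, 0.40), the chaperone gene Hspa8 (0.40, 0.29), the transferrin gene Trf (0.31, 0.28), the matrix gene Mgp (0.28, 0.36) and the joint row of F830016B08Rik, Gm4951 and the interferon-induced GTPase gene Iigp1 (0.29, 0.24). For H2-K1 the values were lower: Pan3 (0.26, 0.29), the collagen gene Col1a2 (0.25, 0.24), Clmp (0.23, 0.27), the row of Nrp1 and Mir1903 (0.23, 0.26) and Fstl1 (0.25, 0.22). Fstl1 and Serping1 each stood among the 5 for a pair of the 3 genes. The interferon-induced Ifitm2 came sixth for B2m, with 0.53 in young and 0.35 in old cells, but stood at 26 of 232 for H2-D1 (0.22, 0.14) and at 127 of 232 for H2-K1 (0.30, -0.02). Ifitm3 stood at 23 for B2m, 46 for H2-D1 and 53 for H2-K1.

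The rest of the pathway was described from lists written from general knowledge, beside 1514 genes higher and 1675 lower in old cells among all 3189 and the 3.64% past 1. Among genes for loading and trimming peptides, 14 of 15 found were listed in 10% of cells, 10 higher and 4 lower in old cells, with a median difference of 0.18. The chaperone calreticulin, Calr, was past 1 at 1.17, listed in 34 young (41.5%) and 42 old cells (53.8%). Calnexin, Canx, stood at 0.69, the translocon subunit gene Sec61g at 0.46 and the aminopeptidase gene Lnpep at -0.13. Of 9 immunoproteasome and proteasome genes, 7 were listed in 10% of cells, 5 higher and 2 lower, with a median of 0.30 and none past 1. The immunoproteasome subunit Psmb8 was highest at 0.80, listed in 10 young and 21 old cells, and 1 old cell held 93.8% of its sum. Its constitutive counterpart Psmb5 (joint row with Mir686) was lowest at -0.57, with Psmb6 at 0.42 and the activator Psme2 at -0.23.

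Heavy chains outside the 10 genes were mostly not listed. Of 24 such genes, 5 were part of the joint rows above, 10 rows were listed in no cell, and 3 were listed in 10% of cells: H2-Q8 (0.07), the lipid-presenting Cd1d1 (-0.48) and the Fc receptor gene Fcgrt (-0.07). Of 16 genes put on the list for transcription of class I, 7 were listed in 10% of cells, 2 higher and 5 lower, with a median of -0.22. Sp100, a nuclear body gene induced by interferon, was past 1 at 1.60, listed in 1 young and 27 old cells. Whether Sp100 acts on class I genes was not tested. Irf1, an interferon-induced activator of class I promoters, stood at -0.45 (30 young and 26 old cells) and the coactivator gene Crebbp at -0.22.

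Upstream, 6 of 9 interferon receptor and kinase genes were listed in 10% of cells, 5 higher and 1 lower, with a median of 0.23. The 1 lower gene was Ifngr1, the ligand-binding chain of the interferon gamma receptor, at -1.01. It was listed in 50 young (60.98%, 49.6% to 71.6%) and 26 old cells (33.3%, 23.1% to 44.9%). Ifngr1 was named as the lowest of its list, and 2.07% of the 3189 genes were 1 or more lower in old cells. Ifnar2 stood at 0.48 and the kinase gene Jak1 at 0.03. Of 32 rows of the interferon response, 9 were listed in 10% of cells, 3 higher and 6 lower, with a median of -0.09 and none past 1. Ifitm3 was highest at 0.96, listed in 68 cells of each age, Lgals3bp was lowest at -0.90 (44 young and 30 old cells), and Ifitm2 stood at -0.14.

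The immunoproteasome gene Psmb9 was listed in 15 of 81 cells with H2-T23 (18.5%) and in 6 of 79 without (7.59%), and its fellow subunit gene Psmb8 the other way, in 12 (14.8%) and 19 (24.1%). Cells with H2-T23 also had more genes, with medians of 1322.5 in young and 1322 in old cells against 685.5 and 622 in those without, and the part of gene number in these shares was not tested. Of the 10 cells with Tap1, whose gene lies beside Psmb9, 1 listed Psmb9 and 4 listed Psmb8.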

How the data were processed

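RNA was measured in 160 single cells, and the values used are FPKM, as deposited. The build mm9 and Cufflinks 2.1.1 are named in the submitters' processing notes; how reads shared between genes were handled, and the depth, were not stated in the sources used, so no count model was used and precision is known only for shares of cells. Of 31199 rows, 7751 without a name were left out, and rows sharing a name were summed. Differences are of mean log2(FPKM + 1), computed here with a pseudocount of 1, which understates changes of low genes. Correlations are Spearman's, of residuals of ranks on the number of genes at 1 FPKM.

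The members and lists were chosen with earlier results of these data known. Named from each list were the 2 highest genes by mean log2 and the highest and lowest difference; cells by number, repeated values, pairs of listed genes, Ifitm ranks and the motifs were chosen after values were seen. Cell numbers are names. No doublet caller was run, since the labels' protocols describe removal by microscopy. Python 3.11.15, numpy 2.4.6, pandas 2.3.3, scipy 1.17.1 and matplotlib 3.10.9 were used. The measures were tested on simulated data. Alternatives were other pseudocounts, filters, scalings, joint rows, listing levels, correlation measures and subsets of cells.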

Additional observations from a re-analysis of the deposited data

How the results depend on the processing

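No class I gene was past 1 with the main settings, so none could reverse from past 1. The signs of B2m, H2-K1, H2-T22 and H2-Q4 turned under at least 1 alternative, as given above. The number of class I genes past 1 (none of 8) became 1 with a pseudocount of 0.1 (H2-K1, -1.01) and without cells listing a blood marker (H2-K1, -1.15; 4.29% of 2870 genes past 1), and 2 with the log2 ratio of mean FPKM (H2-K1 -3.10, Nlrc5 1.16), under which 36.5% of the 3189 genes were past 1. Their median difference (-0.25) was -0.42 with a pseudocount of 0.1, -0.12 with 10, -0.058 with the ratio of means, -0.13 with no filter (10 genes), -0.37 with a 25% filter (6 genes) and 0.29 with rows that carry a gene's name alone (3 genes), under which Tapbp was listed in 1.22% of young and 0% of old cells. It was -0.41 without the 20 cells of nearly equal B2m and -0.027 with only cells above the median gene number of their age. The median number of class I genes per cell (5 in each age) was 2 and 2 with name-alone rows (of 6 genes), 6 and 6 with any FPKM above 0, and 4 and 4 at 10 FPKM. The median correlation in old cells (0.03) was 0.15 without removal of the gene number, and with name-alone rows it could not be computed. Of 3189 genes, 116 were past 1, and 366 with a pseudocount of 0.1, 15 with 10 and 1163 with the ratio of means; with only cells above the median gene number it was 239 of 4499. Of 116 alternative differences of single class I genes, 110 stayed within 0.5 and on their side of 1 and 6 moved. This count ignores sign, so B2m (0.08) and H2-T22 (0.24) with the ratio of means count as staying. Of 212 alternative shares, 176 stayed in the interval of the main share. Settings that left a gene's row unchanged are in both counts, so neither measures how firm a sign is. The subsets by blood marker, by gene number above the median and by B2m value were chosen after seeing the data. No paired analysis was possible because cell numbers only name cells and each age is 1 sample. With the depth unknown, a gene not listed is not shown to be absent.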
